A study of Homo sapiens with 48 samples.

Results

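CLU, MLLT11 and TLR6 are 3 genes that were chosen by their response in these libraries. They are rows of the count matrix whose Ensembl identifier occurs once and whose level was higher after carfilzomib in each of 8 human cancer cell lines, and they are 3 of 33892 rows. The libraries come from colon cancer lines RKO and DLD-1, lung cancer lines H-23 and H-1299, pancreatic cancer lines PANC-1 and CAPAN-2, and multiple myeloma lines H-929 and RPMI. Each line was grown as a 2D culture. It was given carfilzomib for 24 h at the IC50 of proteasome activity, or the solvent DMSO alone, in biological triplicate. This gives 16 groups of 3 libraries and 48 libraries in all, each measured by stranded total RNA sequencing. The concentrations were set for each line and are not given in the sources used here, so a difference between lines may also be one between doses. No line carries an engineered allele in the labels, and the DMSO libraries of a line are the only controls of its carfilzomib libraries.

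The proteasome is the complex that degrades proteins tagged with ubiquitin, and carfilzomib binds it irreversibly. Cells in which it is blocked collect misfolded proteins and are known to switch on chaperones, antioxidant enzymes and the autophagy and lysosome pathways. CLU encodes clusterin (also apolipoprotein J), a secreted chaperone that keeps unfolded proteins soluble outside the cell and also occurs in forms that remain inside it. MLLT11, also called AF1q, encodes a small protein first found as a fusion partner of KMT2A (MLL) in leukaemia and known as a cofactor of the Wnt pathway transcription factor TCF7. TLR6 encodes a Toll-like receptor of the cell surface that pairs with TLR2 to detect bacterial lipopeptides and signals through the adaptors TIRAP and MYD88.

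The rule that selected the genes used the values of carfilzomib against DMSO in every line, so those values are a description here and carry no test. A gene was called when edgeR's quasi-likelihood test gave a Benjamini-Hochberg adjusted p under 0.05 within a line. Of 11374 single-row genes tested in all 8 lines, 418 had a log2 fold change above 0 in every line and 14 were called higher in every line, among them CLU, MLLT11 and TLR6. In one fit of all 48 libraries CLU was not called in PANC-1, nor TLR6 in RPMI. The share of all tested genes called higher was 3.62% in RKO, 10.9% in DLD-1, 17.7% in H-23, 29.8% in H-1299, 20.5% in PANC-1, 25.7% in CAPAN-2, 26.4% in H-929 and 31.3% in RPMI. The other 11 genes called higher throughout were PPP2R5B, SLC38A6, SNX29, ACOT13, RPS6KC1, ATG2A, CTSD, FLYWCH1, BLVRB, HTATIP2 and MAN2B1. Closest to the threshold from inside was PPP2R5B in RKO (log2 fold change 0.50), followed by TLR6 in RPMI (0.18). Closest from outside lay PHKB (0.21 in RKO), FTL (0.20 in RKO) and LRSAM1 (0.16 in PANC-1), each called higher in the other 7 lines.

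Library totals ran from 9116329 to 64369098 reads, with the lowest in H-929. Levels are given in CPM, read counts relative to the library total after TMM scaling over all 48 libraries. Markers of the labelled tissues were checked in the DMSO libraries. The plasma cell factor IRF4 stood at 2104 CPM in H-929 and 551 CPM in RPMI and at most 0.293 CPM in the other 6 lines. The keratins KRT8 and KRT18 were lowest among the carcinoma lines in RKO (54.5 and 74 CPM), where KRT19 and KRT7 had no read. The intestinal factor CDX2 was highest in DLD-1 (116 CPM) and stood at 20.9 CPM in RKO, while the duct keratin KRT7 stood at 1332 CPM in CAPAN-2 but 1.75 CPM in PANC-1. The lung factor NKX2-1 was not analysed here, so the lung labels were checked on keratins alone. Some marker sums differed by treatment. The 4 myeloma markers summed to 3970 to 4157 CPM in DMSO and 2205 to 2370 CPM after carfilzomib in H-929, and to 1097 to 1207 CPM and 539.6 to 621.2 CPM in RPMI. The 4 epithelial markers went from 969.6 to 1065 CPM to between 360.3 and 399.5 CPM in H-1299, and the 3 fibroblast markers from 0.352 to 1.24 CPM to between 4.88 and 7.93 CPM in H-929. The part of these differences in the rises of those lines was not tested. Of cell types in which Toll-like receptors are commonly studied, the leukocyte marker PTPRC had a mean of at most 4.12 CPM (RPMI). The 3 monocyte markers CD14, LYZ and CSF1R summed to between 0.451 and 16.25 CPM in DMSO libraries and between 0.788 and 10.65 CPM in carfilzomib libraries. In bulk libraries, more cells that express a gene and more RNA per cell cannot be told apart.

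CLU (ENSG00000120885) lies on the minus strand at chr8:27596917-27615031 in GRCh38, is protein-coding, and has 6616 exon bases in GENCODE release 29. One of its exons holds the microRNA gene MIR6843, which covers 151 exon bases (2.3%). CLU was higher after carfilzomib by between 0.17 (PANC-1) and 5.02 (RPMI) on the log2 scale, with a median of 1.42. In 6 of 8 lines the rise was at least 2-fold, and in 1 line it was at least 4-fold. In CPM, every carfilzomib library lay above every DMSO library of its line, in all 8 lines.

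In RKO, CLU had 628, 740 and 1104 reads in the DMSO libraries and 1806, 1715 and 1915 after carfilzomib. The mean level was 46.1 ± 1.57 CPM in DMSO and 108 ± 4.68 CPM after carfilzomib (SD, n = 3), and the log2 fold change was 1.23 ± 0.0568 (SE). The 3 carfilzomib libraries were close to each other, and none overlapped the DMSO libraries. In DLD-1, CLU had 14518, 8460 and 9783 reads in DMSO and 18751, 16948 and 15742 after carfilzomib. Its level of 292 ± 17.5 CPM in DMSO was the highest of the 8 lines, and it stood at 578 ± 46 CPM after carfilzomib, a log2 fold change of 0.99 ± 0.0639. The highest starting level thus went with a rise near 2-fold and with no overlap of the libraries.

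The lung lines started at different levels. In H-23, CLU had 3348, 2265 and 4790 reads in DMSO and 3373, 6042 and 6691 after carfilzomib, or 74.8 ± 3.99 CPM and 155 ± 6.39 CPM. The raw counts of H-23, whose libraries hold between 19686952 and 55017608 reads, overlapped while the CPM values did not, and the log2 fold change was 1.07 ± 0.0426. In H-1299, CLU had 2092, 1108 and 1410 reads in DMSO and 2700, 3811 and 2544 after carfilzomib. Mean levels were 33.4 ± 2.81 CPM and 114 ± 2.89 CPM, and the fitted log2 fold change 1.84 ± 0.0593. H-1299 started lower than H-23 and ended lower as well, with separate groups in both lines.

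The pancreatic lines held the smallest rise of CLU and one of the larger ones. In PANC-1, CLU had 3828, 3807 and 4393 reads in DMSO and 4487, 5333 and 4767 after carfilzomib. These reads gave 132 ± 3.88 CPM against 148 ± 2.75 CPM, with a log2 fold change of 0.17 ± 0.0353. The libraries of PANC-1 did not overlap, but the distance between the groups was small, and the fold change stood at percentile 73.4 of all genes tested in PANC-1. In one fit of all 48 libraries CLU was not called in PANC-1 (0.17). In CAPAN-2, CLU had 1799, 1455 and 2384 reads in DMSO and 5888, 5048 and 3498 after carfilzomib. DMSO libraries averaged 51.4 ± 3.33 CPM and carfilzomib libraries 158 ± 7.11 CPM, 1.60 ± 0.0628. apart on the log2 scale After carfilzomib, PANC-1 and CAPAN-2 thus held similar levels from unequal starts.

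The myeloma lines differed most. In H-929, CLU had 806, 728 and 639 reads in DMSO and 1562, 1560 and 1296 after carfilzomib, or 46.3 ± 3.45 CPM and 150.1 ± 13.6 CPM. The log2 fold change was 1.86 ± 0.0966, and no library overlapped. In RPMI, CLU had 353, 788 and 1236 reads in DMSO and 16337, 19213 and 20494 after carfilzomib. The level went from 30.9 ± 7.94 CPM, the lowest of the 8 lines, to 965 ± 10.5 CPM, the highest level of CLU in any group, a log2 fold change of 5.02 ± 0.125. Relative to their mean, the DMSO libraries of RPMI were spread more widely than those of the other lines, and all lay far below the carfilzomib libraries.

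**Figure D1:**
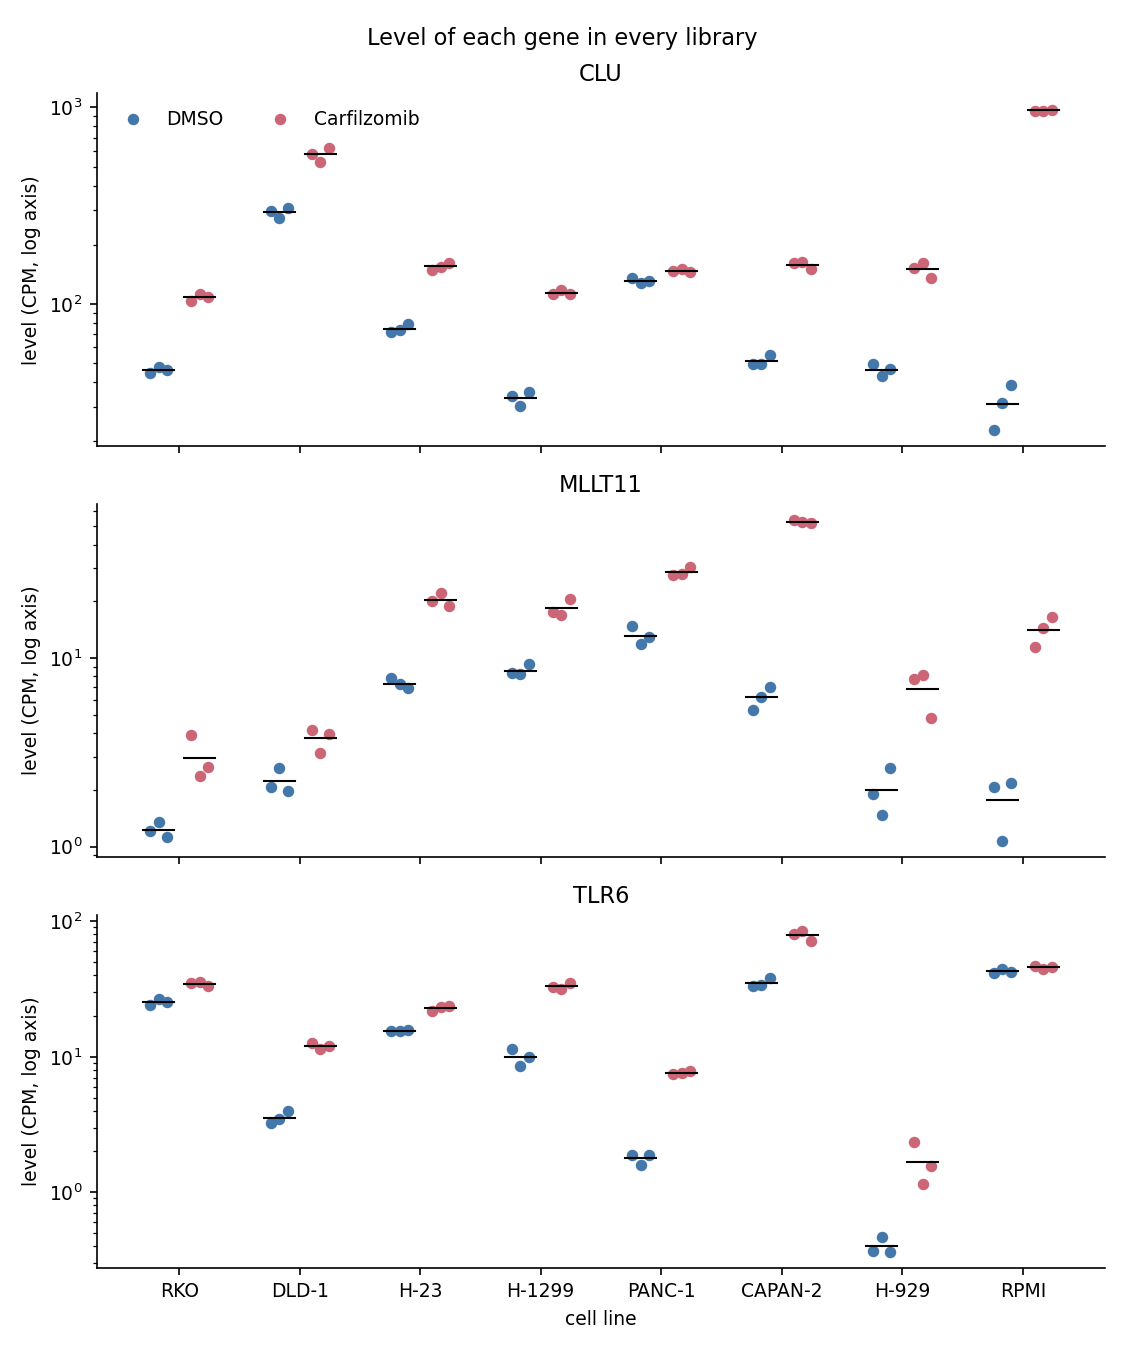
Level of CLU, MLLT11 and TLR6 in every library, in CPM on a log axis, by cell line. Blue points are DMSO libraries, red points carfilzomib libraries (3 each) and black bars the group means. CLU in RPMI goes from 30.9 to 965 CPM, MLLT11 in CAPAN-2 from 6.19 to 52.8 CPM, and TLR6 in RPMI stays near 42.6 to 45.8 CPM.

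The DMSO level of CLU, which the rule did not use, was tested across lines in one edgeR fit of the 24 DMSO libraries. It differed between lines (F = 312 on 7 degrees of freedom, adjusted p = 2.79e-22), with a 9.46-fold range, in a test that 98.8% of genes passed. From low to high the order was RPMI, H-1299, RKO, H-929, CAPAN-2, H-23, PANC-1 and DLD-1. At the low end, RPMI and H-1299 were not told apart (log2 difference 0.06 ± 0.103 SE, adjusted p = 0.611; 74.0% of genes passed between these lines). RKO stood above H-1299 (0.48 ± 0.103, adjusted p = 0.000164; 71.8% passed). In the middle, RKO, H-929 and CAPAN-2 lay together: adjusted p was 0.668 for H-929 against RKO (70.3% passed; with library totals H-929 stood below RKO by -0.25, adjusted p = 0.049) and 0.442 for CAPAN-2 against H-929 (77.6% passed). H-23 stood above CAPAN-2 (0.56 ± 0.0953, adjusted p = 8.03e-06; 73.4% passed), PANC-1 above H-23 (0.77 ± 0.0934, adjusted p = 4e-08; 66.8% passed), and DLD-1 above PANC-1 (1.17 ± 0.0924, adjusted p = 9.67e-12; 68.9% passed). Shares of this size are the background of the comparison between any pair of lines, so passing it does not set CLU apart.

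After carfilzomib the lowest line for CLU was RKO and the highest RPMI, 8.94-fold apart. Across the 8 lines, the log2 DMSO level and the rise of CLU had r = -0.607 (Spearman rho = -0.857), and the log2 levels in DMSO and after carfilzomib r = 0.212 (rho = 0.143). These are descriptions over 8 points, and the DMSO libraries enter both axes. The largest move in the order was that of RPMI, from the bottom to the top, and both relations are given with RPMI included. Among the remaining lines DLD-1 was the highest in both treatments (292 and 578 CPM). H-929, CAPAN-2, H-23 and PANC-1 lay close together after carfilzomib, between 147.5 and 158.3 CPM.

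MLLT11 (ENSG00000213190), the TCF7 cofactor, lies on the plus strand at chr1:151057758-151068497 in GRCh38, is protein-coding and has 4075 exon bases in GENCODE release 29. Its exons overlap those of CDC42SE1, a gene of the opposite strand, over 473 bases (11.6%). The use of strand in the counting is not given in the sources used here, so reads of this overlap could belong to either gene. The RefSeq entry of MLLT11 (GRCh38.p14) starts further downstream, 774 bases from CDC42SE1. The 300 bases around that start were searched on both strands for 5 short motifs of stress-responsive factors. These were the heat shock element (GAANNTTC or TTCNNGAA), the antioxidant response element (TGACNNNGC), the ATF4 element (TGATGNAA), the E-box (CACGTG) and the AP-1 element (TGANTCA). MLLT11 held 1 match each of the heat shock and the antioxidant response element and none of the other 3. Both windows are shown on the plus strand because they are the only matches in the windows searched. The capitals mark the match, and the second is read on the reverse strand.
MLLT11 heat shock element, chr1:151060297-151060312: agtgTTCTGGAAccta
MLLT11 antioxidant response element, chr1:151060321-151060337: attaGCCGAGTCAggca
The first match spans bases -96 to -89 and the second bases -72 to -64 from the RefSeq start. Of 35116 RefSeq promoters of the same length, 13.5% held the heat shock element, 13.3% the antioxidant response element, 3.62% the ATF4 element, 7.26% the E-box and 7.71% the AP-1 element. A match is a description of letters and not a bound site.

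MLLT11 was higher after carfilzomib by between 0.76 (DLD-1) and 3.08 (RPMI) on the log2 scale, with a median of 1.39. The rise was at least 2-fold in 7 of 8 lines and at least 4-fold in 2, CAPAN-2 and RPMI. No carfilzomib library overlapped a DMSO library of its line in CPM. The gene had few reads in RKO, H-929 and RPMI, where the DMSO libraries held between 17 and 70 reads, and its rises there have the widest errors. It was not called in RKO without DMSO library 3 or carfilzomib library 1 or 3 (1.03 to 1.35), nor in DLD-1 without carfilzomib library 1 (0.68).

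In RKO, MLLT11 had 17, 21 and 27 reads in the DMSO libraries and 68, 36 and 47 after carfilzomib. The group means were 1.23 ± 0.117 CPM and 2.97 ± 0.809 CPM (SD, n = 3), which differ by 1.28 ± 0.305 (SE) on the log2 scale. The first carfilzomib library was the highest, and the others lay nearer to DMSO. In DLD-1, MLLT11 had 101, 81 and 63 reads in DMSO and 134, 100 and 100 after carfilzomib. Mean levels were 2.22 ± 0.343 CPM and 3.75 ± 0.547 CPM, and the fitted log2 fold change 0.76 ± 0.177, the smallest of the 8 lines. The raw counts of DLD-1 met at 100 and 101 reads, and its CPM values were next to each other without overlap.

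The lung lines had similar levels. In H-23, MLLT11 had 365, 224 and 418 reads in DMSO and 453, 863 and 781 after carfilzomib, or 7.33 ± 0.444 CPM and 20.3 ± 1.64 CPM. The log2 fold change was 1.5 ± 0.088, with clear separation. In H-1299, MLLT11 had 510, 301 and 365 reads in DMSO and 423, 551 and 462 after carfilzomib. These reads gave 8.59 ± 0.578 CPM against 18.3 ± 1.89 CPM, with a log2 fold change of 1.16 ± 0.107. The raw counts of both H-1299 groups overlapped, with DMSO libraries of 38477108 to 64369098 reads against 24017029 to 35421770 reads after carfilzomib, and the CPM values did not.

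PANC-1 had the highest DMSO level of MLLT11 and CAPAN-2 the highest level after carfilzomib. In PANC-1, MLLT11 had 416, 351 and 433 reads in DMSO and 845, 993 and 995 after carfilzomib. DMSO libraries averaged 13.1 ± 1.49 CPM and carfilzomib libraries 28.7 ± 1.45 CPM, 1.13 ± 0.0779. apart on the log2 scale All carfilzomib libraries of PANC-1 lay above its DMSO libraries. In CAPAN-2, MLLT11 had 193, 183 and 304 reads in DMSO and 1957, 1640 and 1208 after carfilzomib. The group means were 6.19 ± 0.877 CPM and 52.8 ± 0.959 CPM, which differ by 3.07 ± 0.0891. on the log2 scale The carfilzomib libraries of CAPAN-2 were nearly equal in CPM.

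Both myeloma lines started low. In H-929, MLLT11 had 31, 25 and 36 reads in DMSO and 79, 78 and 46 after carfilzomib, or 2.00 ± 0.58 CPM and 6.88 ± 1.81 CPM. The log2 fold change was 1.95 ± 0.346, and the third carfilzomib library was the lowest of its group without reaching DMSO. In RPMI, MLLT11 had 32, 27 and 70 reads in DMSO and 196, 289 and 346 after carfilzomib. Mean levels were 1.77 ± 0.611 CPM and 14.1 ± 2.53 CPM, and the fitted log2 fold change 3.08 ± 0.237. The lowest carfilzomib library of RPMI stood well above its highest DMSO library.

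**Figure D2:**
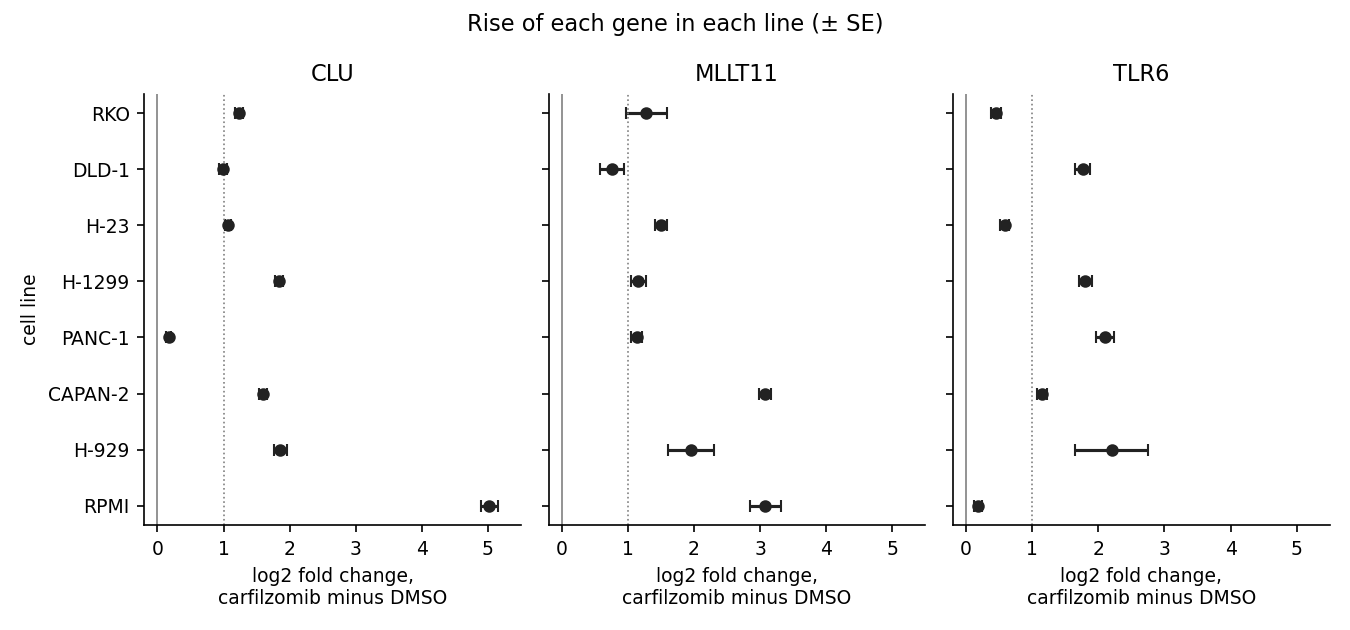
Log2 fold change of CLU, MLLT11 and TLR6 after carfilzomib in each line, with its standard error from the edgeR fit of that line (3 libraries a group). The solid line marks no change and the dotted line 2-fold. CLU ranges from 0.17 in PANC-1 to 5.02 in RPMI, and TLR6 from 0.18 in RPMI to 2.2 in H-929.

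The DMSO level of MLLT11 differed between lines (F = 64.7 on 7 degrees of freedom, adjusted p = 2.33e-14), with a 10.7-fold range, again where 98.8% of genes passed. From low to high the order was RKO, RPMI, H-929, DLD-1, CAPAN-2, H-23, H-1299 and PANC-1. The 4 lowest were not told apart as neighbours. Adjusted p was 0.0653 for RPMI against RKO (74.0% of genes passed; without the libraries numbered 2 it passed, 0.88, adjusted p = 0.00984), 0.47 for H-929 against RPMI (72.1%) and 0.752 for DLD-1 against H-929 (76.2%). CAPAN-2 stood above DLD-1 (log2 difference 1.49 ± 0.21, adjusted p = 5.27e-07; 65.9% passed). H-23 against CAPAN-2 (adjusted p = 0.24) and H-1299 against H-23 (adjusted p = 0.342; 71.0% passed) did not pass. PANC-1 stood above H-1299 (0.59 ± 0.195, adjusted p = 0.00898; 68.8% passed), a call that was lost without the libraries numbered 1 (0.47, adjusted p = 0.139). Over the 8 lines the log2 DMSO level and the rise of MLLT11 had r = -0.155 (rho = -0.429), and the log2 levels in both treatments r = 0.797 (rho = 0.738).

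TLR6 (ENSG00000174130) lies on the minus strand at chr4:38823715-38856817 in GRCh38, is protein-coding and has 6035 exon bases in GENCODE release 29. It neighbours TLR1, whose protein pairs with TLR2 as well, and the annotations of both share 57 exon bases (0.9%). The genes are close relatives: of 6076 stretches of 50 bases in TLR6 transcripts, 4.1% also occurred in TLR1. The longest run that both share has 218 bases of coding sequence, at chr4:38827863-38828080 in TLR6 and chr4:38797236-38797453 in TLR1, both on the minus strand. It is shown because reads that lie inside it cannot be assigned to either gene.
TLR6 and TLR1 shared run: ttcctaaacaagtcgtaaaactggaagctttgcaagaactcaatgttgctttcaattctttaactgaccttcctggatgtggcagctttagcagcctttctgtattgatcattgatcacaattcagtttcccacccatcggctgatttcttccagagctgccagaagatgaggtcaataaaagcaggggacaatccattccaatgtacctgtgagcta
Counting every other gene, 5.07% of the stretches in TLR6 occurred elsewhere. One RefSeq start of TLR6 was searched (GRCh38.p14, minus strand). In the 250 bases before that start (36.4% G or C) and the 50 bases after it, none of the 5 motifs was found. Any other start of the gene was not searched. The 250 bases are shown for comparison with the MLLT11 windows.
TLR6 promoter, chr4:38856818-38857067: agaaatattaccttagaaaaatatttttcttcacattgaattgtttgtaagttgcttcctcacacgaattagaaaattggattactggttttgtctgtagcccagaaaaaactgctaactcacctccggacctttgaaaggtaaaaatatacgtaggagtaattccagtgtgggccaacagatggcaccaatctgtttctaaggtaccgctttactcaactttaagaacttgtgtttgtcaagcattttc

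TLR6 was higher after carfilzomib by between 0.18 (RPMI) and 2.2 (H-929) on the log2 scale, with a median of 1.46. The rise was at least 2-fold in 5 of 8 lines and at least 4-fold in 2, PANC-1 and H-929. In H-929 the DMSO libraries held only 5 to 8 reads, and the gene passed the filter on low counts through its carfilzomib libraries. In 7 lines no carfilzomib library overlapped a DMSO library in CPM, and in RPMI they overlapped. The lines with the lowest DMSO levels had the largest fold changes, and the line with the highest had the smallest.

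In RKO, TLR6 had 341, 413 and 607 reads in the DMSO libraries and 609, 545 and 591 after carfilzomib. These reads gave 25.4 ± 1.22 CPM against 34.7 ± 1.22 CPM (SD, n = 3), with a log2 fold change of 0.45 ± 0.0771 (SE). The raw counts overlapped, the third DMSO library being the deepest of RKO, while the CPM values lay apart. In DLD-1, TLR6 had 158, 107 and 127 reads in DMSO and 403, 362 and 305 after carfilzomib. DMSO libraries averaged 3.55 ± 0.376 CPM and carfilzomib libraries 12 ± 0.605 CPM, 1.76 ± 0.119. apart on the log2 scale The carfilzomib libraries of DLD-1 held more than the DMSO libraries in reads and in CPM.

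In H-23, TLR6 had 721, 473 and 956 reads in DMSO and 491, 906 and 986 after carfilzomib, or 15.5 ± 0.247 CPM and 22.9 ± 1.11 CPM. The log2 fold change was 0.58 ± 0.0609. The raw counts overlapped, and in CPM the groups were separate. In H-1299, TLR6 had 701, 314 and 390 reads in DMSO and 788, 1035 and 788 after carfilzomib. The group means were 9.96 ± 1.42 CPM and 33.2 ± 1.59 CPM, which differ by 1.8 ± 0.0999. on the log2 scale H-1299 started below H-23 and ended above it.

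In PANC-1, TLR6 had 53, 47 and 63 reads in DMSO and 229, 268 and 256 after carfilzomib. Mean levels were 1.78 ± 0.171 CPM and 7.62 ± 0.162 CPM, and the fitted log2 fold change 2.10 ± 0.13. Both groups of PANC-1 were tight. In CAPAN-2, TLR6 had 1206, 995 and 1653 reads in DMSO and 2930, 2619 and 1680 after carfilzomib. The level went from 35.1 ± 2.81 CPM to 79 ± 6.37 CPM, the highest level of TLR6 in any group, a log2 fold change of 1.15 ± 0.0735. The third carfilzomib library of CAPAN-2 had few more reads than the third DMSO library, and its CPM value was still above all 3 DMSO values.

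In H-929, TLR6 had 6, 8 and 5 reads in DMSO and 24, 11 and 15 after carfilzomib, or 0.401 ± 0.0596 CPM and 1.69 ± 0.613 CPM. The log2 fold change was 2.2 ± 0.554, the largest and the least precise of the 8 lines. It stood at percentile 93.6 of all genes tested in H-929, against percentile 99.8 for TLR6 in PANC-1. The DMSO reads alone were too few for the filter on low counts, which TLR6 passed in H-929 through its carfilzomib libraries. Passing that way favours a higher value after carfilzomib, and at this depth the size of the rise in H-929 is uncertain. In RPMI, TLR6 had 639, 1117 and 1352 reads in DMSO and 806, 878 and 968 after carfilzomib. These reads gave 42.6 ± 1.62 CPM against 45.8 ± 1.56 CPM, with a log2 fold change of 0.18 ± 0.0659, at percentile 60.1 of all genes tested in RPMI. The CPM values of RPMI overlapped when scaled over all 48 libraries and did not when scaled within the line. In one fit of all 48 libraries the log2 fold change was 0.10 and was not called. TLR6 in RPMI was also not called without DMSO library 1 or 3 or without carfilzomib library 1 or 3 (log2 fold changes of 0.15 to 0.18).

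**Figure D3:**
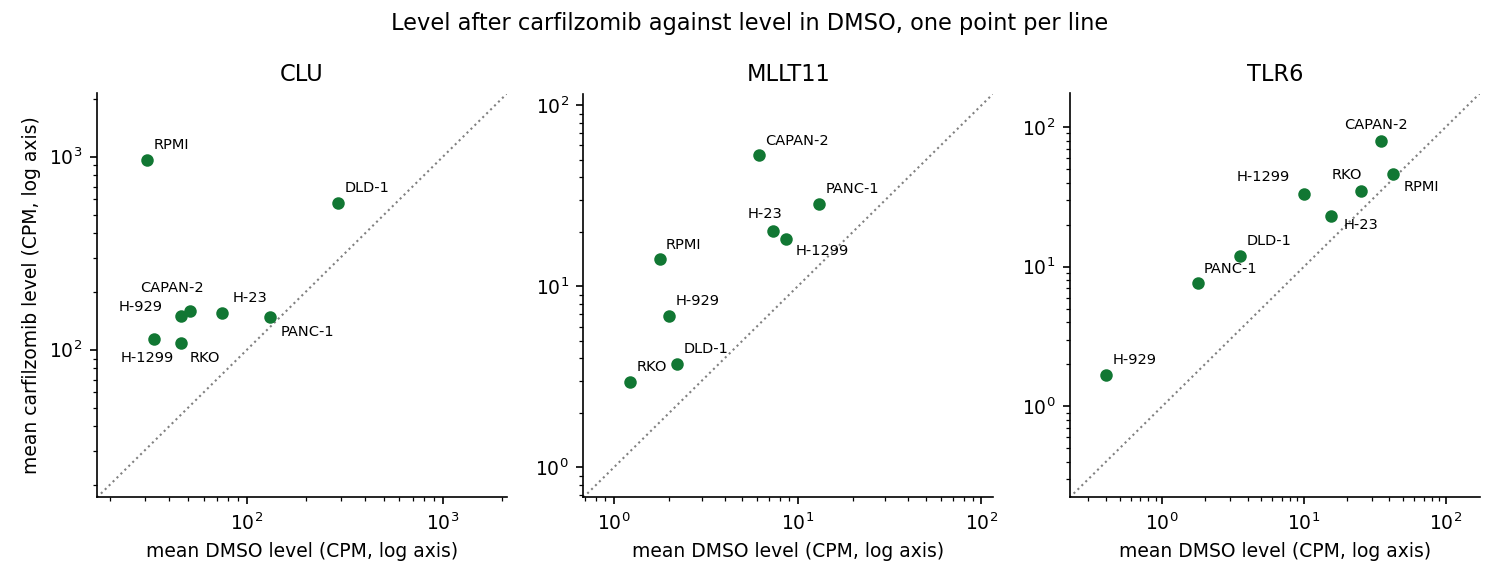
Mean level after carfilzomib against mean level in DMSO, in CPM on log axes, with 1 point per cell line and the dotted line marking equal levels. For TLR6 the RPMI point (42.6 and 45.8 CPM) lies nearest the line, while for CLU the RPMI point (30.9 and 965 CPM) stands far above the others.

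The DMSO level of TLR6 differed between lines (F = 537 on 7 degrees of freedom, adjusted p = 5.67e-25; 98.8% of genes passed), with a 106-fold range. From low to high the order was H-929, PANC-1, DLD-1, H-1299, H-23, RKO, CAPAN-2 and RPMI, and all 7 pairs of neighbours passed with no overlap of their libraries. PANC-1 stood 2.04 ± 0.238 above H-929 on the log2 scale (adjusted p = 1.47e-08; 77.0% of genes passed), and DLD-1 1.00 ± 0.133 above PANC-1 (adjusted p = 1.67e-07). H-1299 stood 1.5 ± 0.109 above DLD-1 (adjusted p = 1.29e-12; 71.3% passed), and H-23 0.66 ± 0.0973 above H-1299 (adjusted p = 1.15e-06). The colon line RKO stood far from the other colon line in this order. RKO was 0.70 ± 0.0975 above H-23 (adjusted p = 3.36e-07; 73.9% passed), and CAPAN-2 0.45 ± 0.0959 above RKO (adjusted p = 0.000132; 72.4% passed). RPMI was 0.30 ± 0.0933 above CAPAN-2 (adjusted p = 0.00514; 76.0% passed), a call that was lost without the libraries numbered 2 (0.23, adjusted p = 0.0907).

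After carfilzomib the range of TLR6 between lines was 46.9-fold, from 1.69 CPM in H-929 to 79 CPM in CAPAN-2. The log2 DMSO level and the rise of TLR6 had r = -0.849 over the 8 lines (rho = -0.905), and the log2 levels in both treatments r = 0.968 (rho = 0.952). The order of the lines was thus nearly kept after carfilzomib. The DMSO libraries enter both quantities of the first relation, which are therefore not independent. H-929, with its few TLR6 reads, is among the 8 points.

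Per kilobase of exon, CLU had the highest DMSO level of the 3 genes in 7 of 8 lines and the highest level after carfilzomib in all 8. The exception was RPMI in DMSO, where TLR6 stood at 7.06 CPM per kilobase and CLU at 4.67. In RPMI after carfilzomib CLU stood at 145.9 and TLR6 at 7.58 CPM per kilobase. MLLT11 had the lowest level in 5 lines and TLR6 in the other 3, in DMSO and after carfilzomib alike. Over the 8 lines the rises of CLU and MLLT11 had r = 0.698, and 0.45 without RPMI. Those of CLU and TLR6 had r = -0.522, with -0.020 without RPMI and -0.612 without H-929. Those of MLLT11 and TLR6 had r = -0.439, with -0.148 without RPMI and -0.547 without H-929. Both relations with TLR6 thus depend on the line left out.

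How far the rise differed between lines was described from one edgeR fit of all 48 libraries. These differences come from the same values as the rule, so they are given with their standard errors and no test. The 2 lines of each tumour type were set side by side, which makes 12 differences. Each pair is 2 cell lines and does not stand for its tumour type. Over all genes in that fit, the rise differed between the 8 lines for 67.7%, and nothing is read from that share about the 3 genes.

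Between the colon lines, the rise of TLR6 was larger in DLD-1 than in RKO by 1.31 ± 0.136 on the log2 scale. For CLU the difference was -0.24 ± 0.119 and for MLLT11 -0.53 ± 0.318. Of all genes, 4.04% differed between these lines. Between the lung lines, H-1299 had the larger rise of CLU by 0.72 ± 0.117 and of TLR6 by 1.16 ± 0.122. For MLLT11 the difference of H-1299 minus H-23 was -0.38 ± 0.222. Of all genes, 30.8% differed between the lung lines.

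Between the pancreatic lines the 3 genes went different ways. CAPAN-2 had the larger rise of CLU by 1.46 ± 0.116 and of MLLT11 by 1.97 ± 0.222, and the smaller rise of TLR6, by -0.92 ± 0.148. Of all genes, 24.9% differed there. The myeloma lines showed the same split. RPMI had the larger rise of CLU by 3.24 ± 0.128 and of MLLT11 by 1.20 ± 0.307. Its rise of TLR6 was the smaller, by -1.96 ± 0.308, against few TLR6 reads in H-929. Of all genes, 40.5% differed between the myeloma lines, and the MLLT11 difference was 0.89 without the libraries numbered 3.

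Genes that work with the 3 were counted by line in the same fits, from lists of known partners and relatives. For these the share of all tested genes called lower is needed as well: 5.28% in RKO, 12.1% in DLD-1, 16.2% in H-23, 31.3% in H-1299, 18.2% in PANC-1, 26.7% in CAPAN-2, 26.2% in H-929 and 32.2% in RPMI. The median log2 fold change of all tested genes lay between -0.02 and 0.03 in every line. Counts of a list add its genes over the 8 lines, so 1 gene can enter up to 8 times. No share of all genes was pooled over the same lines, so a list total is not read as more or fewer calls than that background. The share of all genes called higher or lower in as many lines as a named gene was not counted, so such counts are descriptions.

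The other 9 Toll-like receptor genes, which sense different microbial products, gave 36 gene-by-line tests, of which 6 were called higher and 12 lower. TLR1 was tested in all lines and rose in DLD-1 (1.77 ± 0.226, adjusted p = 0.000361), H-23 (0.43 ± 0.136, adjusted p = 0.0248), H-1299 (2.08 ± 0.24, adjusted p = 7.3e-06) and PANC-1 (1.4 ± 0.371, adjusted p = 0.00947). In these lines its DMSO level was low: 0.659 CPM in DLD-1, 5.77 in H-23, 0.719 in H-1299 and 0.396 in PANC-1, there with 5 to 16 reads. In PANC-1 TLR1 passed the filter on low counts through its carfilzomib libraries, which favours a higher value after carfilzomib. It fell in RPMI by 0.80 on the log2 scale (SE 0.0938, adjusted p = 5.55e-06), where its DMSO level was 45.3 ± 4.91 CPM. The part of the sequence shared with TLR6 in these values was not tested. In CAPAN-2 TLR1 did not pass (0.07 ± 0.0959, adjusted p = 0.558), although TLR6 differed there by 1.15. TLR2, the partner of TLR6, was tested in 4 lines, rose in DLD-1 (0.31 ± 0.0658, adjusted p = 0.00696) and CAPAN-2 (0.91 ± 0.355, adjusted p = 0.0427), and fell in RPMI by 1.56 (SE 0.425, adjusted p = 0.0055). TLR2 had no read in RKO and at most 12 reads in a library of H-23, PANC-1 or H-929. In H-1299 it had 1 to 20 reads in DMSO libraries and 5 to 11 after carfilzomib, and in CAPAN-2 14 to 18 and 19 to 33. TLR6 was thus detected in RKO, H-23, H-1299, PANC-1 and CAPAN-2, where its partner was not or scarcely, while in H-929 both genes had few reads.

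TLR4, the receptor of bacterial endotoxin, was tested in CAPAN-2, H-929 and RPMI and fell in all 3, with log2 fold changes of -0.24, -1.13 and -1.14. TLR3, which senses double-stranded RNA, fell in 3 of 7 lines tested and rose in none. TLR5, the receptor of flagellin, was called lower in 2 of 6 lines. In CAPAN-2 its log2 fold change was -2.08 ± 0.321 (adjusted p = 7.19e-05). In H-1299 it had between 16 and 25 reads in the DMSO libraries and 0 or 1 after carfilzomib. There it passed the filter on low counts through its DMSO libraries, which favours a lower value after carfilzomib. TLR7 and TLR9, receptors of nucleic acids inside the cell, fell in RPMI by 1.66 and 1.62. With 1 library left out, the call of TLR1 in H-23 was lost for 3 of its 6 libraries, that of TLR2 in CAPAN-2 for 4, and that of TLR3 for 3 in DLD-1 and 1 in H-1299. TLR8 and TLR10 passed the filter on low counts in no line.

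**Figure D4:**
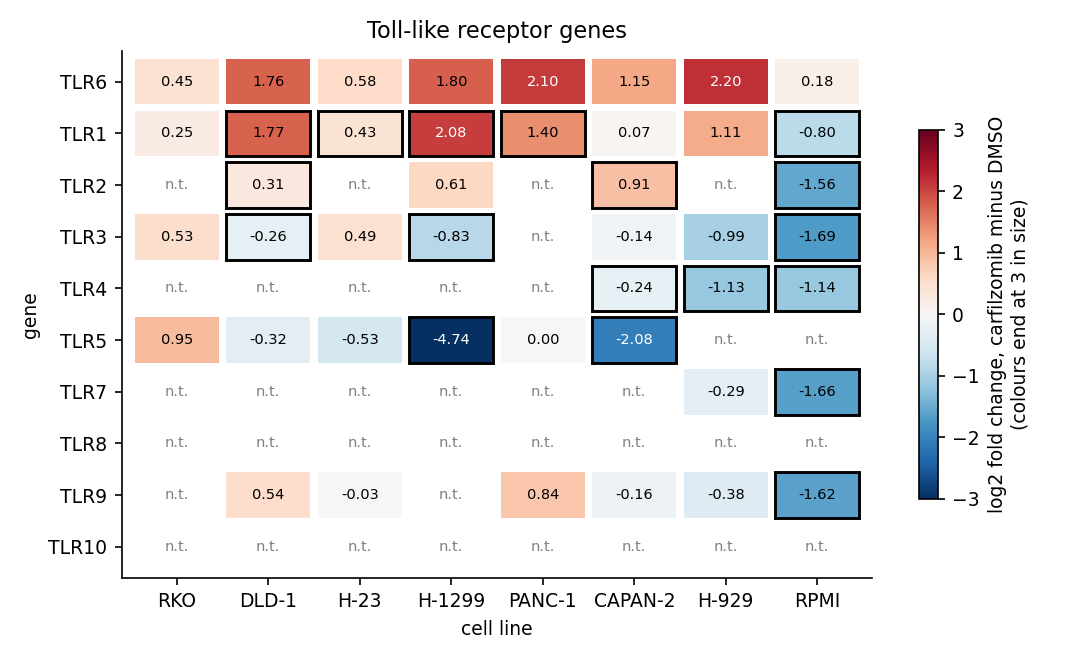
Log2 fold change of the Toll-like receptor genes after carfilzomib (colour and number) by gene and cell line. Black frames mark calls at adjusted p under 0.05 for genes other than TLR6, which the rule chose and which carries no frame, and n.t. marks genes below the filter on low counts. TLR1 is framed as higher in 4 lines and lower in RPMI, and TLR4 as lower in 3.

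The co-receptors, folding factors and adaptors of Toll-like receptors gave 136 tests, 42 higher and 23 lower, and the list's median by line lay between -0.06 and 0.42. Of the adaptors that TLR6 uses, TIRAP rose in 4 of 8 lines, most in RPMI (1.52 ± 0.129, adjusted p = 2.17e-07). MYD88 fell in PANC-1 (-0.35 ± 0.118, adjusted p = 0.0317) and passed in no other line of 7 tested. In H-1299 MYD88 was below the filter on low counts, with a mean of 0.18 CPM in DMSO. The co-receptor CD14 was called higher in 3 of 6 lines, and the endotoxin co-receptor LY96 was called higher in 3 of 5 and fell in RPMI. Some of these calls rest on few reads. LY96 had 1 to 5 reads in DMSO libraries and 14 to 24 after carfilzomib in CAPAN-2, and 4 to 12 and 12 to 18 in H-1299. CD14 had 0 to 9 and 13 to 16 in H-929. In these lines the genes passed the filter on low counts through their carfilzomib libraries. Passing that way favours a higher value after carfilzomib, so these calls are not read as rises. The other calls, of CD14 in H-23 and PANC-1 and of LY96 in DLD-1, had at least 25 reads in every library. HSP90B1, the chaperone that folds Toll-like receptors, rose in 5 lines and fell in 2. UNC93B1, which carries the intracellular receptors to endosomes, fell in 4 lines and rose in RKO. The kinase IRAK1 fell in 5 lines and rose in 2. Leaving out single libraries ended the calls of MYD88 in PANC-1 and UNC93B1 in RKO for 5 of 6 libraries, and those of CD14 in H-23, HSP90B1 in H-23 and IRAK1 in CAPAN-2 for 4. It ended those of CD14 in H-929 and TIRAP in H-1299 for 1.

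The clusterin receptors gave 25 tests, 10 higher and 5 lower. LRP2 was called lower in H-23 and higher in H-929, where it had 2 to 8 reads in DMSO and 13 to 31 after carfilzomib. In H-929 it passed the filter on low counts through its carfilzomib libraries, which favours a higher value. LRP1, an endocytic receptor of many ligands, rose in 5 of 8 lines and fell in none, with the largest change in RPMI (1.29 ± 0.102, adjusted p = 1.08e-07). LRP8, the ApoE receptor that binds clusterin, rose in 3 lines and fell in 2, and VLDLR rose in 1 and fell in 2. The clusterin partners inside the cell gave 40 tests, 11 higher and 16 lower. XRCC5, the Ku80 subunit of DNA end joining, fell in 7 of 8 lines, between -0.18 and -1.01, and H-23 did not pass (-0.07, adjusted p = 0.0947). HSPA5, the chaperone BiP of the endoplasmic reticulum, rose in 4 lines, most in RPMI (1.79 ± 0.0666, adjusted p = 8.76e-11), and fell in PANC-1 and H-929. BAX, the pore protein of cell death, rose in RKO and H-929 and fell in 4 lines. The calls of XRCC5 in RKO and HSPA5 in H-23 were lost without any one of 5 of their 6 libraries.

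Of the other 6 apolipoprotein and extracellular chaperone genes, APOE, A2M and HP passed the filter on low counts in at least 1 line, which gave 12 tests. APOE, the lipid carrier, stood at 568.1 ± 17.7 CPM in the DMSO libraries of PANC-1 and at 28.4 ± 1.9 CPM in those of H-23. It rose in H-23 (0.64 ± 0.0728, adjusted p = 1.27e-05) and PANC-1 (0.30 ± 0.0295, adjusted p = 5.71e-06), and none of the list fell. The terminal complement genes and complement inhibitors, which act on the pathway that clusterin also blocks, gave 54 tests, 9 higher and 20 lower. C5 fell in 5 of 8 lines, most in CAPAN-2 (-2.25 ± 0.126, adjusted p = 2.69e-09). The membrane inhibitor CD55 rose in 5 lines and fell in H-929, while CD59 rose in 2 lines and fell in 3. The call of CD55 in H-929 was lost without 1 of the 6 libraries. The list's median by line lay between -0.55 and -0.06.

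KMT2A and its fusion partners gave 88 tests, 27 higher and 17 lower. AFF1 and ELL, which belong to the elongation complexes of RNA polymerase II, rose most often: AFF1 in 6 lines with a fall in DLD-1, and ELL in 5 lines with no fall. Their largest changes were both in H-1299, 1.22 ± 0.0529 for AFF1 and 1.24 ± 0.0732 for ELL. MLLT1 and MLLT10, named like MLLT11 after fusions but unrelated in sequence, each fell in 2 lines and rose in none. The row named MLLT6 shares its identifier with another row and passed the filter in no line. The MLLT11 partners gave 39 tests, 18 higher and 6 lower. TCF7 rose by between 0.79 and 1.35 in 4 lines: RPMI, H-929, H-1299 and CAPAN-2. LAMP2, the lysosomal membrane receptor of chaperone-mediated autophagy, rose in 5 lines and fell in none, and HSPA8, the chaperone of the same route, rose in 4 and fell in 3. Single libraries left out ended the calls of AFF1 and LAMP2 in DLD-1 and ELL in RPMI for 4 of 6 libraries, and that of MLLT10 in PANC-1 for 2.

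The nearest protein-coding neighbours on the chromosome gave 80 tests, 15 higher and 29 lower, and the list's median by line lay between -0.32 and 0.02. Beside CLU, SCARA3, a scavenger receptor gene, fell in 6 of 7 lines tested, by up to 1.61 in CAPAN-2 (SE 0.106, adjusted p = 1.32e-08), while EPHX2 rose in 2 lines and fell in H-1299. Beside MLLT11, GABPB2 fell in 7 of 8 lines, between -0.22 and -0.87, and was not called in RPMI (0.30, adjusted p = 0.0583). CDC42SE1, which overlaps MLLT11, rose in H-23 (0.18) and H-1299 (0.42) and fell in PANC-1, CAPAN-2 and H-929, and its DMSO level lay between 73.8 CPM (H-1299) and 267 CPM (H-929). The part of its reads in the MLLT11 counts was not tested. Beside TLR6, FAM114A1, which overlaps it in RefSeq, rose in 3 lines by up to 0.52 and fell in H-1299, and TMEM156 rose in 3 lines and fell in H-1299. Single libraries left out ended the calls of GABPB2 in H-1299 for 4 of 6 libraries, EPHX2 in PANC-1 and FAM114A1 in H-1299 for 3, and EPHX2 in H-929 and GABPB2 and SCARA3 in PANC-1 for 2.

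**Figure D5:**
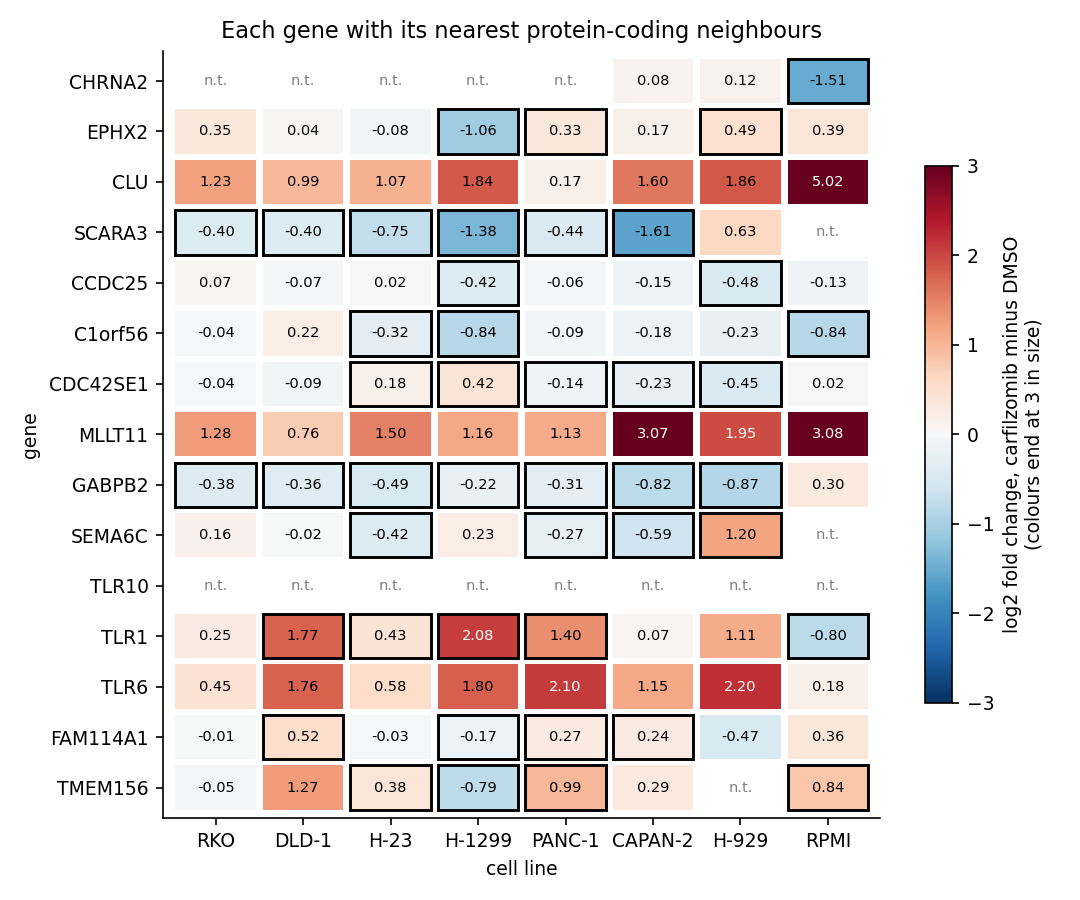
Log2 fold change after carfilzomib (colour and number) of CLU, MLLT11, TLR6 and up to 2 protein-coding genes on each side, in chromosome order, by cell line. Black frames mark calls at adjusted p under 0.05 for the neighbours, and n.t. marks genes below the filter on low counts. SCARA3 and GABPB2, next to CLU and MLLT11, are framed as lower in 6 and 7 lines. The share of all genes called lower in as many lines was not counted.

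The genes whose rise was most like each of the 3 over the 8 lines, by Pearson r among 11374 single-row genes, were listed as a description. Most like CLU were ATXN2L (r = 0.992), CEP164 (0.980), SLC7A11 (0.978), ITGAV (0.978) and CD58 (0.977), all with their largest change in RPMI. SLC7A11, the cystine transporter, changed by between -0.55 (PANC-1) and 2.72 (RPMI), and its r without RPMI was 0.846. Most like MLLT11 was HMOX1, the haem-degrading antioxidant enzyme, with r = 0.972, and 0.957 without RPMI. Its log2 fold changes were 0.67 in RKO, 0.20 in DLD-1, 1.38 in H-23, 1.60 in H-1299, 1.00 in PANC-1, 3.94 in CAPAN-2, 2.61 in H-929 and 4.62 in RPMI. HMOX1 thus had its largest values in CAPAN-2 and RPMI, as MLLT11 did, and its smallest in DLD-1, where it was not called (adjusted p = 0.282). LRRC37A17P (0.953), COMMD10 (0.945), ASF1A (0.942) and ZNF16 (0.934) followed. Most like TLR6 were SNORD46 (0.942), RPS19BP1 (0.911), EMC1-AS1 (0.906), RAB15 (0.902) and SNORA3A (0.892), with changes of both signs, from -1.04 to 1.05 at the widest (SNORA3A).

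By level over the 16 groups, the most like CLU were CRY2 (r = 0.786), GTF2IP20, ARMH1, NLRC4 and ISG15 (0.721). The most like MLLT11 were SFXN5 (0.936), DNAJB2, HARS2, ALAS1 and NPLOC4 (0.874), and the most like TLR6 were ZBTB34 (0.878), COPS7A, PRKCE, GLUL and RFFL (0.835). By Spearman's rho, 0 of the 5 genes closest to CLU in rise, 1 of 5 for MLLT11 and 3 of 5 for TLR6 stayed among the closest, so these lists depend on the measure of likeness.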

How the data were processed

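The authors deposited 1 matrix of raw read counts per gene for 48 libraries, made with TruSeq Stranded TotalRNA kits from Qiazol extracts, per the labels' protocols. The submitters' processing notes name bcl2fastq 2.19, FastQC, Trimmomatic, HISAT2, DESeq2 and the hg38 build, with no roles. The annotation, the counter and its use of strand are not given in the sources used here. CLU, MLLT11 and TLR6 and the gene lists were chosen with earlier results of these data known. Of 33892 rows, 4803 share an identifier with another row. GENCODE release 29 matched 29680 rows (87.6%) by identifier. Of the 3 genes, 2 had an entry in the RefSeq promoter table.

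Counts as deposited were tested within each line (6 libraries) with edgeR 4.0.16 in R 4.3.3, using TMM scaling, the filterByExpr filter on low counts and the quasi-likelihood test with Benjamini-Hochberg adjustment, called under 0.05. DMSO levels were compared in 1 fit of 24 libraries (21116 genes) and rises between lines in 1 fit of 48 (22309 genes). The planned test of the latter is not reported for the 3 genes, since the rule used that contrast. It served only to pick the differences listed for a closer look. Standard errors came from the fold change and its F statistic. Levels (CPM) were scaled over 48 libraries, so their ratios differ slightly from fitted fold changes. The scripts were tested on simulated data. No pair of replicate libraries agreed within sampling noise (lowest chi-square per degree of freedom 3.33). P-values set a difference between group means against the spread between biological triplicates. That spread is estimated over all groups of a fit and moderated over genes. Alternatives were other scalings, filters, DESeq2 1.42.0, a replicate block, 1 fit of all libraries and libraries left out. Likeness without the line of largest rise was added after seeing the data. Named genes were the 3 genes, their lists, the 2 nearest protein-coding neighbours on each side and the 5 most alike by Pearson r. The genes called in all lines or nearest to the threshold were named after their values were seen.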

Additional observations from a re-analysis of the deposited data

Results flagged for a closer look

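The 9 differences below, between the 2 lines of a tumour type, were listed out of 12 by the interaction term of one edgeR fit. They come from the values that chose CLU, MLLT11 and TLR6, so they are a description and no evidence of a difference by themselves. Over all genes the same term passed for 4.04% in the colon, 30.8% in the lung, 24.9% in the pancreatic and 40.5% in the myeloma pair. All values are differences of log2 fold changes. For CLU the difference was 0.72 for H-1299 minus H-23, 1.46 for CAPAN-2 minus PANC-1 and 3.24 for RPMI minus H-929. For MLLT11 it was 1.97 for CAPAN-2 minus PANC-1 and 1.20 for RPMI minus H-929, the last being 0.89 without the libraries numbered 3. For TLR6 it was 1.31 for DLD-1 minus RKO, 1.16 for H-1299 minus H-23, -0.92 for CAPAN-2 minus PANC-1 and -1.96 for RPMI minus H-929.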

How the results depend on the processing

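Of the rises of CLU, MLLT11 and TLR6 in 8 lines (24 values), all 144 values with 1 library left out stayed within 1 replicate SD of the reported ones. That SD comes from the same libraries, and leaving out 1 of them can hardly move a group mean further. This outcome was thus nearly fixed in advance. Of these 144 values, 8 lost the call. Under other settings 4 values lost the call, and 162 of 165 stayed within 1 replicate SD. The exceptions were CLU in H-1299 (1.73 with library totals), CLU in H-929 (1.70 in one fit of all libraries) and TLR6 in RPMI (0.10 in one fit). CLU in PANC-1 was not called in one fit (0.17), nor TLR6 in RPMI without a filter (0.14) or by DESeq2 (0.17). Library totals moved the median of all genes to -0.12 in H-1299, where CLU stood 1.86, MLLT11 1.18 and TLR6 1.81 above it, and moved the share of calls that were higher from 40.6% to 60.8% in RKO and from 47.5% to 60.3% in DLD-1. With library totals the baseline of H-929 minus RKO for CLU turned to -0.25 and passed (adjusted p = 0.049), H-23 minus CAPAN-2 for MLLT11 passed (0.51) and RPMI minus CAPAN-2 for TLR6 did not (0.20); the cause was not tested. Leaving out all libraries of 1 replicate number gave 0.23 to 0.38 for the last, 0.24 to 0.88 for RPMI minus RKO (passing at 0.88) and 0.47 to 0.67 for PANC-1 minus H-1299 (MLLT11 baselines), and 0.89 to 1.53 for the MLLT11 rise of RPMI minus H-929. Calls higher in RKO (525) were 805 with library totals, 794 without a filter and 197 to 482 with 1 library left out, the lowest without carfilzomib library 3. With fewer libraries, calls lower in RKO were 403 to 774, and those in DLD-1 1100 to 1870 higher and 1272 to 2151 lower. One fit of all libraries called 1863 genes higher in H-23, 2060 higher and 1727 lower in PANC-1, and 6266 higher and 6400 lower in H-929. Calls of Toll-like receptor genes higher were 3 at a mean of at least 50 counts, which removes low genes from the test, and those of other apolipoproteins 4 in one fit. MLLT11 in RKO and H-929 and TLR6 in H-929 fell below that filter and gave no value. Over 502 list genes by line, 174 of the values with fewer libraries and 80 under other settings lost a call, 46 and 69 gained one, and none reversed. The 24 same-numbered pairs of libraries correlated weakly, between -0.119 and 0.169, and 10 of 24 were best with their own number. In H-23 (0.029 to 0.169) and PANC-1 (0.0544 to 0.127) every number was best with its own. Correlations this weak cannot decide whether the numbers pair the libraries. With the replicate block, calls in RKO were 571 higher and 813 lower, TLR6 in RPMI stayed at 0.18, and no called count of a line or list moved by over 1.5 times.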
